A study of Mus musculus with 6 samples.

Results

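Solute carriers, the Slc genes, encode the membrane proteins that move sugars, amino acids, ions, metals, vitamins and metabolites across the cell surface and across the membranes of organelles. The chromatin around them was examined in mouse small intestinal organoids, with and without RANKL. Members were the protein-coding genes whose symbol starts with Slc and a digit. Read counts were summed over the 200-bp windows whose nearest protein-coding gene end belonged to the gene and lay within 50 kb, and a gene was kept with 60 or more counts over the 6 libraries. Of 375 such genes, 325 had a window and 260 were kept, out of 15997 genes with a window in the whole data set. The 3 genes just outside the threshold were Slc2a12, Slc4a11 and Slc7a2 with 57, 58 and 58 counts, and the 3 just inside were Slc10a5, Slc28a3 and Slc6a13 with 60, 60 and 62 counts. The symbol rule also takes Slc9a3r1, which is a scaffold protein and not a carrier.

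Accessible DNA was cut and tagged with the transposase Tn5 and sequenced (bulk ATAC-seq). RANKL organoids (n = 3) received 100 ng/ml of the cytokine RANKL for 6 days, after 3 days of ENR medium with 3 µM CHIR99021, a GSK3 inhibitor, and 1.5 mM valproic acid, a histone deacetylase inhibitor, and then 1 day of ENR alone. Control organoids (n = 3) were kept in ENR medium, which holds EGF, NOGGIN and R-SPONDIN1, and were collected on day 6 as well. Both groups came from 1 line of wild type organoids from a female mouse that carries Lgr5GFPDTR/+, a reporter and diphtheria toxin receptor allele at the stem cell gene Lgr5, and the replicates are 3 independent differentiation experiments. The control library names begin with CVENR, an abbreviation that the labels do not explain. They do not say otherwise whether control organoids also had CHIR99021 and valproic acid, so effects of that pretreatment and of RANKL cannot be told apart here. RANKL is known to drive intestinal epithelium toward microfold (M) cells, the cells that carry particles from the gut lumen to lymphoid tissue. The series title names the factor ONECUT2 in RANKL-dependent enterocyte and M cell differentiation.

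In the small intestine, solute carriers divide the work of absorption between the brush border, which takes nutrients up from the lumen, and the basolateral membrane, which passes them on to the blood. The SLC4, SLC9 and SLC26 families exchange bicarbonate, sodium, protons, chloride and sulfate and so set fluid absorption and pH. Other families work inside the cell, with SLC25 in the inner mitochondrial membrane and SLC35 in the Golgi and endoplasmic reticulum.

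Libraries held 322173 to 828445 counts with RANKL and 455083 to 976881 counts in control organoids. Values are given as CPM, counts scaled to edgeR's library sizes, and a level here is the accessibility of DNA, not the amount of a transcript. Members held 60 counts up to 954 counts (Slc35f5), with a median of 183 counts in a median of 3 windows, so most single windows are thin. In bulk cultures, fewer cells of a type and less open DNA per cell cannot be told apart. The nearest gene end need not be that of the gene a window acts on. Of 10 epithelial markers, 9 could be tested, none was higher and Krt18 was lower. Their summed accessibility was 1121 to 1276 CPM with RANKL and 1289 to 1359 CPM in control organoids, open in both groups and lower in all RANKL libraries. Epcam, which was not called, had 234, 205 and 189.9 CPM with RANKL, against 235, 241 and 250.2 CPM in control organoids.

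Calls near solute carrier genes went in both directions, at a share near that of all genes. Of 255 members that could be tested, 20 (7.84%) were higher and 21 (8.24%) were lower with RANKL in edgeR's quasi-likelihood test with Benjamini-Hochberg adjustment over all genes (adjusted p at or under 0.05), so 16.1% were called. Among all 12466 genes tested, 6.99% were higher, 8.41% lower and 15.4% called in either direction, so the share of members called lies near the background. The median log2 fold change was -0.00 over members and 0.01 over all genes. The called members moved by a median of 1.72-fold upward and 1.67-fold downward. All RANKL libraries lay outside the range of all controls in 68 members (26.7%), 31 of them above and 37 below, beside 30.5% of all genes. The other 5 members did not pass edgeR's filter on low counts.

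Below, where a gene's call ended with 1 library left out, with the experiment number as a block, with loess offsets or with 2-kb counts, the edgeR adjusted p found there stands in parentheses. Assigning windows to the nearest gene body ended 4 calls in edgeR, those of Slc16a10 (0.0673), Slc25a13 (0.968), Slc25a35 (0.534) and Slc39a9 (0.975). Leaving out any 1 library kept 8 of the 41 calls: Slc13a4, Slc16a12, Slc25a32, Slc26a3, Slc27a6 and Slc4a4 among the lower members and Slc26a2 and Slc38a7 among the higher. RANKL replicate 3 weighed most on the higher calls, of which 4 of 20 remained without it. It was also the deepest RANKL library, with 828445 counts, and the part of lost depth in the ended calls was not tested. Control replicate 1 weighed most on the lower calls, of which 9 of 21 remained without it. DESeq2 kept 15 of the 41 calls, namely Slc13a4, Slc16a12, Slc25a17, Slc25a29, Slc25a32, Slc26a2, Slc26a3, Slc27a6, Slc37a1, Slc38a7, Slc45a3, Slc4a4, Slc4a7, Slc9a2 and Slc9a8. Slc13a4, Slc25a32, Slc26a3 and Slc4a4 kept their calls in every alternative that used all of their windows. Slc25a32 passed the filter on low counts only through the control libraries, so its call is a description.

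**Figure D1:**
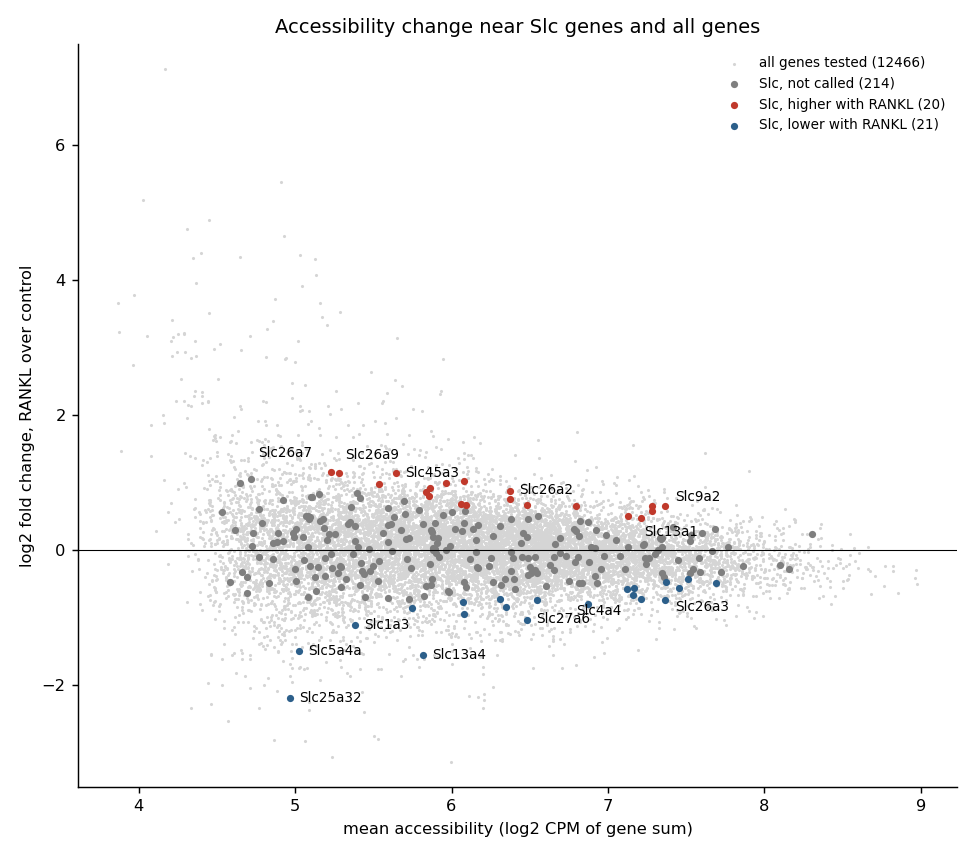
Log2 fold change of accessibility (RANKL over control) against mean accessibility (log2 CPM) for the summed windows of 12466 genes, with the 255 tested Slc members drawn larger. The 20 members called higher and the 21 called lower lie within the cloud of all genes, and their changes run from -2.19 (Slc25a32) to 1.16 (Slc26a7).

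Among ion and acid-base carriers, the largest class, 7 of 44 tested genes were higher and 5 lower, or 27.3% called beside 15.4% of all genes. The SLC26 anion exchangers, with 9 genes tested, had 4 higher (Slc26a2, Slc26a7, Slc26a8 and Slc26a9) and 1 lower (Slc26a3), with a median log2 fold change of 0.49 over the family. The SLC9 sodium/proton exchangers, with 9 tested when the scaffold Slc9a3r1 is counted, had 3 higher (Slc9a2, Slc9a4 and Slc9a8) and 1 lower (Slc9a3), with a median of 0.04. Slc9a3r1 is also among the 44. The SLC4 bicarbonate carriers, with 7 tested, had 3 lower (Slc4a4, Slc4a7 and Slc4a8) and none higher at this threshold, with a median of -0.57. Over all genes the median was 0.01 and 15.4% were called. In edgeR the other SLC4 members tested, Slc4a1, Slc4a3, Slc4a5 and Slc4a9, had unadjusted p-values of 0.638, 0.278, 0.0121 and 0.187.

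Slc26a3, at chr12:31433142-31473922 (mm10), encodes the apical chloride/bicarbonate exchanger that absorbs chloride from the gut lumen. It had 93.7, 147 and 109 CPM with RANKL, against 200.2, 189.7 and 199 CPM in control organoids. All RANKL libraries lay below all controls (log2 fold change -0.74 ± 0.16, edgeR adjusted p = 2.13e-04). Slc9a3, the brush border sodium/proton exchanger that works alongside it in salt absorption, had 50.7, 79.1 and 62.8 CPM with RANKL, against 113, 116 and 88.1 CPM in control organoids. Again the groups did not overlap (log2 fold change -0.74 ± 0.22, edgeR adjusted p = 0.0103). The Slc9a3 call ended without RANKL replicate 3 (0.0799), without control replicate 1 (0.0512), without control replicate 2 (0.0728), with 2-kb counts (0.153) and with 2-kb counts and loess offsets (0.32). No single library ended the Slc26a3 call.

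Other members of the same families were higher. Slc26a2, a sulfate transporter needed to sulfate matrix and mucus glycans, had 152, 95.5 and 91.9 CPM with RANKL, against 60.6, 57.6 and 54.0 CPM in control organoids, with no overlap (log2 fold change 0.89 ± 0.23, edgeR adjusted p = 0.00171). That call ended with 2-kb counts (0.0699). Slc26a9, a chloride transporter of airway and stomach epithelium, had 54.6, 38.2 and 58.2 CPM with RANKL, against 38.1, 11.8 and 17.1 CPM in control organoids (log2 fold change 1.15 ± 0.37). Most of its control libraries lay under the level that edgeR's filter on low counts asks for, so these values are a description. Here the lowest RANKL library only just cleared the highest control, and the call ended without RANKL replicate 3 (0.185) and without control replicate 2 (0.215). Slc26a7, an anion exchanger of stomach and kidney, had 31.2, 38.2 and 65.9 CPM with RANKL, against 14.1, 26.2 and 25.6 CPM in control organoids (log2 fold change 1.16 ± 0.38, edgeR adjusted p = 0.0207). Its groups did not overlap, but the call rested on few counts and ended without RANKL replicate 3 (0.442), without control replicate 1 (0.152), with the experiment number as a block (0.0973) and with 2-kb counts and loess offsets (0.0504). Part of the Slc26a7 sum lies in a window nearly empty in control organoids, described below. For Slc26a8, an anion exchanger known from the testis, the groups overlapped, with 66.4, 128 and 104 CPM with RANKL, against 53.6, 47.1 and 96.7 CPM in control organoids (log2 fold change 0.76 ± 0.23, edgeR adjusted p = 0.009). That call ended without RANKL replicate 2 (0.123), without RANKL replicate 3 (0.0574), without control replicate 1 (0.0896) and without control replicate 2 (0.154), and its called window lies 11 bp from the end of Slc26a8 and 80 bp from that of Mapk14.

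Among the sodium/proton exchangers, Slc9a2, an apical isoform, had 156, 202 and 224 CPM with RANKL, against 116, 123 and 156 CPM in control organoids (log2 fold change 0.65 ± 0.16, edgeR adjusted p = 8.75e-04). RANKL replicate 1 fell just under control replicate 3, and the Slc9a2 call ended without RANKL replicate 3 (0.0708). Slc9a8, which works at the apical surface and in the Golgi, had 129, 196 and 217 CPM with RANKL, against 129.7, 109 and 128 CPM in control organoids (log2 fold change 0.65 ± 0.16, edgeR adjusted p = 0.00134), with RANKL replicate 1 inside the control range. The Slc9a8 call ended without RANKL replicate 3 (0.125). Slc9a4, a basolateral isoform best known from the stomach, had 141, 156 and 118 CPM with RANKL, against 70.5, 103 and 79.6 CPM in control organoids (log2 fold change 0.65 ± 0.20, edgeR adjusted p = 0.00997), with no overlap. It ended without RANKL replicate 2 (0.0952), without control replicate 1 (0.123), with 2-kb counts (0.255) and with 2-kb counts and loess offsets (0.102). Slc9a4 and Slc9a2 are neighbours on chromosome 1, and 1 called window counted for Slc9a4 lies 20651 bp outside that gene and 30330 bp from Slc9a2. Slc9a4 and Slc9a8, like Slc4a7 below, were named after their values were seen.

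The lower bicarbonate carriers bring bicarbonate into the cell together with sodium. Slc4a4, the electrogenic sodium/bicarbonate cotransporter of the basolateral membrane, spans chr5:88793858-89239656 and had 50.7, 128 and 119 CPM with RANKL, against 162, 184 and 185 CPM in control organoids. All RANKL libraries lay below all controls, RANKL replicate 1 furthest (log2 fold change -0.72 ± 0.17, edgeR adjusted p = 7.53e-04). Slc4a7, an electroneutral sodium/bicarbonate cotransporter, had 62.4, 115 and 121 CPM with RANKL, against 141, 199 and 156 CPM in control organoids, again with no overlap (log2 fold change -0.66 ± 0.18, edgeR adjusted p = 0.00305). Slc4a8, a sodium-driven chloride/bicarbonate exchanger, had 54.6, 62.8 and 47.5 CPM with RANKL, against 124, 73.3 and 88.1 CPM in control organoids (log2 fold change -0.83 ± 0.24, edgeR adjusted p = 0.00634). All of its RANKL libraries lay below its controls, while control replicate 1 stood well above the other controls. The Slc4a7 call ended without control replicate 2 (0.124), and the Slc4a8 call ended without RANKL replicate 3 (0.105), without control replicate 1 (0.212), with 2-kb counts (0.0583) and with 2-kb counts and loess offsets (0.145). Slc4a5 had 70.3, 51.8 and 67.4 CPM with RANKL, against 97.3, 90.3 and 96.7 CPM in control organoids and was not called (log2 fold change -0.57 ± 0.23, edgeR adjusted p = 0.068).

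**Figure D2:**
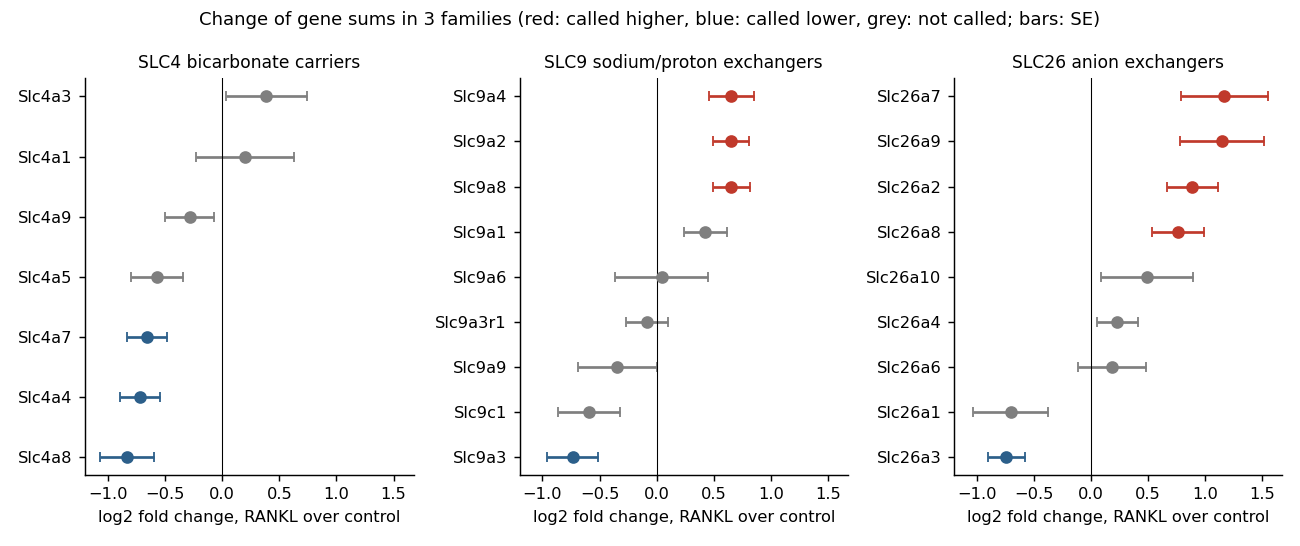
Log2 fold change of accessibility (RANKL over control) with its SE for each tested gene of the SLC4, SLC9 (with the scaffold Slc9a3r1) and SLC26 families, coloured by edgeR call. Changes run from -0.83 (Slc4a8) to 0.39 (Slc4a3) in SLC4, from -0.74 (Slc9a3) to 0.65 in SLC9 and from -0.74 (Slc26a3) to 1.16 (Slc26a7) in SLC26.

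A list of carriers of intestinal absorption, 46 genes long, had 40 members. Of these, 4 were higher (Slc13a1, Slc26a2, Slc27a4 and Slc9a2), 5 were lower (Slc16a10, Slc26a3, Slc40a1, Slc4a4 and Slc9a3) and 31 were not called, with a median log2 fold change of 0.07. The share called was 22.5%, beside 15.4% of all genes, and the difference was not tested. The main sugar and peptide transporters were among those not called. Slc5a1, the sodium/glucose cotransporter of the brush border, had 58.5, 73.7 and 62.8 CPM with RANKL, against 80.4, 79.8 and 65.4 CPM in control organoids (log2 fold change -0.23 ± 0.24, edgeR adjusted p = 0.558), with overlapping groups. Slc2a2, the facilitative glucose transporter of enterocytes, had 156, 180.1 and 172 CPM with RANKL, against 161, 144 and 142 CPM in control organoids (log2 fold change 0.19 ± 0.16, edgeR adjusted p = 0.468), which also overlapped. Slc2a5, the fructose transporter, had 74.2, 68.2 and 87.3 CPM with RANKL, against 109, 87.7 and 76.8 CPM in control organoids (log2 fold change -0.24 ± 0.22, edgeR adjusted p = 0.492). Slc15a1, the brush border peptide transporter, had 164, 145 and 164 CPM with RANKL, against 220.0, 186 and 185 CPM in control organoids. All of its RANKL libraries lay below its controls, yet the difference did not pass the threshold (log2 fold change -0.33 ± 0.15, edgeR adjusted p = 0.129).

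Other absorptive carriers also stayed short of the threshold in edgeR. The log2 fold change was -0.51 ± 0.29 for Slc6a19 (adjusted p = 0.231), the neutral amino acid transporter of the brush border. It was -0.46 ± 0.43 for Slc7a9 (adjusted p = 0.523) and 0.30 ± 0.28 for Slc3a1 (adjusted p = 0.512), the partner subunits that take up cystine and dibasic amino acids, all by edgeR. For Slc10a2, the ileal bile acid transporter, and Slc51b, a subunit of the basolateral bile acid exporter, it was 0.04 ± 0.19 and 0.26 ± 0.45. For Slc11a2, which takes up ferrous iron, Slc39a4, which takes up zinc, and Slc34a2, a phosphate transporter, it was 0.41 ± 0.25, 0.15 ± 0.39 and -0.06 ± 0.16. Standard errors of these values ran from 0.16 (Slc34a2) to 0.45 (Slc51b), and missing the threshold does not show that a gene did not differ. Slc51a and Slc46a1, the other bile acid exporter subunit and the proton-coupled folate transporter, each had 52 counts and were not kept.

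Slc40a1, ferroportin, the basolateral iron exporter, had 144, 145 and 121 CPM with RANKL, against 189, 211 and 134 CPM in control organoids. Its groups overlapped because control replicate 3 lay within the RANKL range (log2 fold change -0.47 ± 0.16, edgeR adjusted p = 0.0306). The Slc40a1 call ended without RANKL replicate 3 (0.24), without control replicate 1 (0.121), without control replicate 2 (0.296), with the experiment number as a block (0.158) and with loess offsets (0.089). Slc16a10, a basolateral transporter of aromatic amino acids, had 117, 95.5 and 118 CPM with RANKL, against 196, 164 and 111 CPM in control organoids, with overlap at control replicate 3 as well (log2 fold change -0.56 ± 0.17, edgeR adjusted p = 0.0145). That call ended without RANKL replicate 2 (0.0937), without control replicate 1 (0.257), without control replicate 2 (0.0566), with the experiment number as a block (0.0831) and with 2-kb counts and loess offsets (0.204).

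A list of 12 carriers of crypt and secretory cells had no member called in edgeR, with 5 at an unadjusted p under 0.05, beside 28.1% of all genes. DESeq2 called none of the 12 either. Slc12a2, the basolateral sodium-potassium-chloride cotransporter that feeds chloride secretion, had 113, 101 and 79.6 CPM with RANKL, against 73.3, 68.0 and 59.7 CPM in control organoids. All of its RANKL libraries lay above its controls, short of the threshold (log2 fold change 0.46 ± 0.22, edgeR adjusted p = 0.152).

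Carriers of carboxylates, sulfate, lipids and urea had 2 of 19 genes higher and 4 lower, or 31.6% called beside 15.4% of all genes, and 13 of the 19 had an unadjusted p under 0.05 in edgeR, beside 28.1% of all genes. Slc13a4, a sodium/sulfate cotransporter, had 11.7, 30.0 and 27.6 CPM with RANKL, against 76.1, 73.3 and 68.2 CPM in control organoids in its single window. All RANKL libraries lay below all controls (log2 fold change -1.55 ± 0.32, edgeR adjusted p = 4.78e-05). Slc27a6, a fatty acid transport protein known from the heart, had 58.5, 65.5 and 44.4 CPM with RANKL, against 113, 116 and 93.8 CPM in control organoids, with no overlap (log2 fold change -1.02 ± 0.23, edgeR adjusted p = 2.78e-04). The Slc27a6 call ended with 2-kb counts and loess offsets (0.0543). Slc27a4, the fatty acid transport protein of enterocytes, stood the other way with 78.1, 68.2 and 70.5 CPM with RANKL, against 46.5, 41.9 and 22.7 CPM in control organoids (log2 fold change 0.86 ± 0.28, edgeR adjusted p = 0.0214). All of its RANKL libraries lay above its controls, and the call ended without RANKL replicate 1 (0.052), without RANKL replicate 3 (0.0803), without control replicate 3 (0.0987), with 2-kb counts (0.193) and with 2-kb counts and loess offsets (0.234). Slc16a12, a creatine transporter, had 137, 126 and 144 CPM with RANKL, against 209, 192 and 202 CPM in control organoids (log2 fold change -0.55 ± 0.16, edgeR adjusted p = 0.00586), with no overlap, and the call ended with 2-kb counts (0.102) and with 2-kb counts and loess offsets (0.636). Part of the Slc16a12 sum lies in a window nearly empty with RANKL, described below. Slc13a1, the other sodium/sulfate cotransporter, had 230.3, 136 and 162 CPM with RANKL, against 111, 123 and 139 CPM in control organoids (log2 fold change 0.48 ± 0.17, edgeR adjusted p = 0.035). The rise of this sum lies in 1 window, while another window of the gene was lower, both described below. The Slc13a1 groups overlapped, and the call ended without RANKL replicate 1 (0.262), without RANKL replicate 3 (0.0657), without control replicate 1 (0.188), without control replicate 2 (0.101), with the experiment number as a block (0.068) and with 2-kb counts (0.233).

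**Figure D3:**
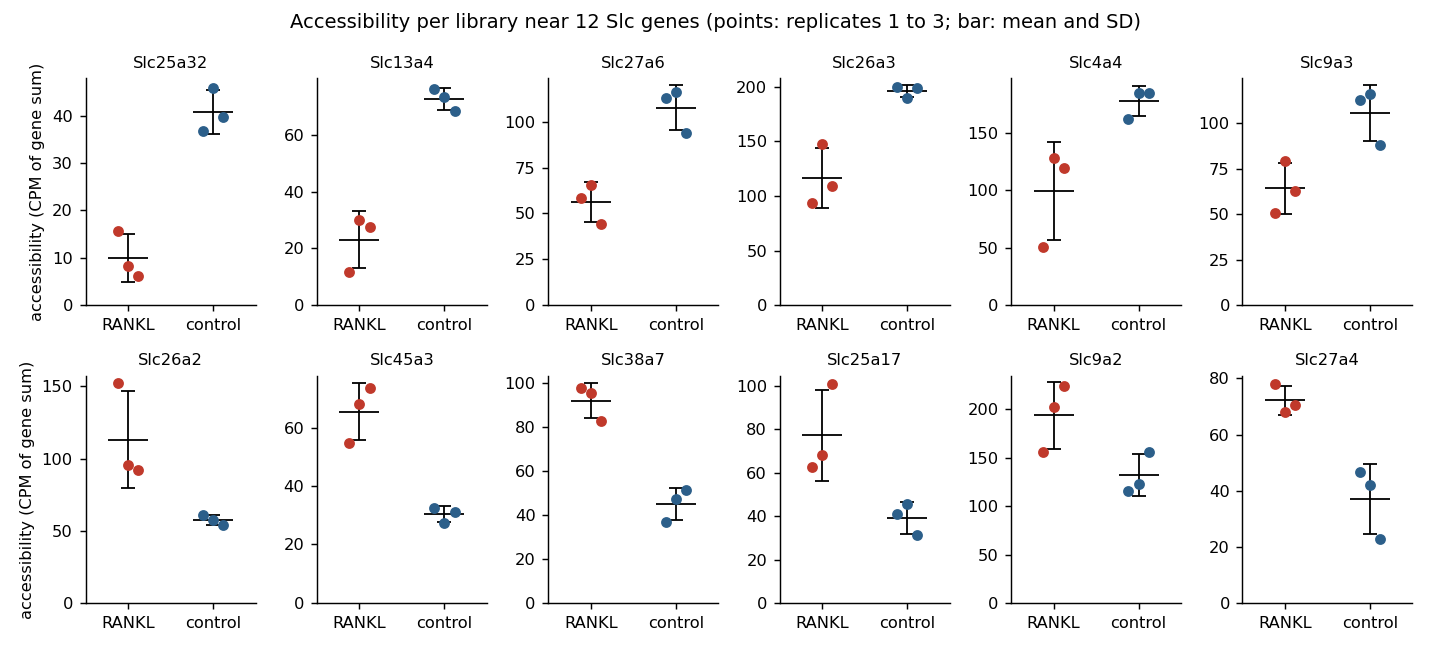
Accessibility (CPM) of the summed windows in each library for 12 called Slc genes, RANKL left and control right, with replicates 1 to 3 as points and the mean and SD as bars. The top row holds genes lower with RANKL and the bottom row genes higher with RANKL, and the groups overlap only for Slc9a2.

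The mitochondrial carrier class, SLC25 and its relatives, had 5 of 38 genes higher and 2 lower, or 18.4% called beside 15.4% of all genes. Slc25a32, which brings folate or FAD into mitochondria, had 15.6, 8.19 and 6.13 CPM with RANKL, against 36.7, 45.8 and 39.8 CPM in control organoids. Its fitted fall was the largest of any member (log2 fold change -2.19 ± 0.51). The gene is counted from 1 window, 4431 bp inside Slc25a32 and 4585 bp from the end of Dcaf13, and the RANKL libraries held 4, 3 and 4 counts there. It passed the filter on low counts only through the control libraries, so these values are a description and no test is given. Slc25a17, a carrier of the peroxisomal membrane, had 62.4, 68.2 and 101 CPM with RANKL, against 40.9, 45.8 and 31.3 CPM in control organoids, with no overlap (log2 fold change 1.00 ± 0.27, edgeR adjusted p = 0.003). Its call ended without RANKL replicate 3 (0.21). Slc25a29, a mitochondrial carrier of basic amino acids, had 219, 145 and 198 CPM with RANKL, against 113, 139 and 117 CPM in control organoids (log2 fold change 0.59 ± 0.16, edgeR adjusted p = 0.00488). The Slc25a29 groups did not overlap, and the call ended without RANKL replicate 3 (0.0799), without control replicate 1 (0.0659) and with 2-kb counts (0.0872). Slc25a54 and Slc25a39, a mitochondrial glutathione carrier, had log2 fold changes of 0.99 ± 0.33 and 0.68 ± 0.25. The Slc25a39 call ended when any 1 of the 6 libraries was left out (highest adjusted p = 0.152), with no filter on low counts (0.054), with loess offsets (0.0702), with 2-kb counts (0.735) and with 2-kb counts and loess offsets (0.733), all by edgeR, and that of Slc25a54 ended without RANKL replicate 2 (0.211), without RANKL replicate 3 (0.0701), without control replicate 2 (0.0767), without control replicate 3 (0.0601), with 2-kb counts (0.0542) and with 2-kb counts and loess offsets (0.136). Slc25a35 and Slc25a13, the aspartate/glutamate carrier citrin, were also called, at 0.68 ± 0.25 and -0.72 ± 0.24, and were named after their values were seen. The Slc25a35 call ended without RANKL replicate 2 (0.58), without control replicate 2 (0.303), without control replicate 3 (0.0623), with loess offsets (0.069), with 2-kb counts (0.0573), with no filter on low counts (0.0538) and with 2-kb counts and loess offsets (0.054), and the Slc25a13 call ended without RANKL replicate 1 (0.143), without RANKL replicate 3 (0.052), without control replicate 1 (0.0701) and without control replicate 3 (0.0676).

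Sugar carriers had 2 of 17 genes higher and 2 lower, or 23.5% called beside 15.4% of all genes. Slc45a3, a sugar transporter known from the prostate, had 54.6, 68.2 and 73.5 CPM with RANKL, against 32.4, 27.5 and 31.3 CPM in control organoids, with no overlap (log2 fold change 1.15 ± 0.31, edgeR adjusted p = 0.00369). The Slc45a3 call ended without RANKL replicate 3 (0.0696). Slc2a6, a glucose transporter of lysosomal membranes, had 54.6, 49.1 and 101 CPM with RANKL, against 28.2, 51.0 and 34.1 CPM in control organoids (log2 fold change 0.93 ± 0.28, edgeR adjusted p = 0.0103). RANKL replicate 3 carried most of that rise, RANKL replicate 2 lay under control replicate 2, and the call ended without RANKL replicate 3 (0.544), without control replicate 1 (0.127) and with the experiment number as a block (0.0658). Slc5a3, the sodium/myo-inositol cotransporter, had 62.4, 24.6 and 42.9 CPM with RANKL, against 79.0, 86.3 and 73.9 CPM in control organoids, with no overlap (log2 fold change -0.95 ± 0.27, edgeR adjusted p = 0.00539), and the call ended without RANKL replicate 2 (0.0824), with 2-kb counts (0.295) and with 2-kb counts and loess offsets (0.369). Slc5a4a had 19.5, 5.46 and 16.8 CPM with RANKL, against 40.9, 36.6 and 42.6 CPM in control organoids (log2 fold change -1.49 ± 0.46), with no overlap. It passed the filter on low counts only through the control libraries, so these values are a description. It is uncertain because the close paralog Slc5a4b lies nearby and reads could be split between them, and its call ended without RANKL replicate 2 (0.101) and without control replicate 1 (0.0685).

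Amino acid and peptide carriers had 2 of 39 genes higher and 4 lower, or 15.4% called, the same share as among all genes (15.4%). Slc38a7, which exports glutamine and asparagine from lysosomes, had 97.6, 95.5 and 82.7 CPM with RANKL, against 36.7, 47.1 and 51.2 CPM in control organoids. Every RANKL library lay far above every control (log2 fold change 1.03 ± 0.25, edgeR adjusted p = 0.00109), and the call ended with 2-kb counts (0.236) and with 2-kb counts and loess offsets (0.215). Slc1a3, the glial glutamate transporter, had 3.90, 21.8 and 32.2 CPM with RANKL, against 45.1, 49.7 and 54.0 CPM in control organoids (log2 fold change -1.11 ± 0.37, edgeR adjusted p = 0.0249). RANKL replicate 1 stood well below the others there, and the call ended without RANKL replicate 1 (0.148), without RANKL replicate 2 (0.0655), without control replicate 1 (0.0557), without control replicate 2 (0.0796) and without control replicate 3 (0.0554). Slc38a9, the lysosomal arginine sensor of the mTORC1 pathway, and Slc43a1, a transporter of large neutral amino acids, fell by 0.77 and 0.85 on the log2 scale. The Slc38a9 call ended without RANKL replicate 3 (0.232), without control replicate 1 (0.0821), without control replicate 2 (0.183) and with the experiment number as a block (0.0876), and that of Slc43a1 ended without RANKL replicate 2 (0.282), without control replicate 1 (0.103), without control replicate 2 (0.0777), without control replicate 3 (0.0768), with 2-kb counts (0.0698) and with 2-kb counts and loess offsets (0.0637). Slc15a5, an orphan of the peptide transporter family, was lower as well (log2 fold change -0.57 ± 0.18, edgeR adjusted p = 0.0143), and the call ended without RANKL replicate 2 (0.0682), without control replicate 1 (0.195), with the experiment number as a block (0.053) and with 2-kb counts and loess offsets (0.257). Part of the Slc15a5 sum lies in a window nearly empty with RANKL, described below. Slc38a10 was higher (log2 fold change 0.50 ± 0.17, edgeR adjusted p = 0.0297) and was named after its values were seen. That call ended without RANKL replicate 3 (0.304), without control replicate 1 (0.219), without control replicate 2 (0.0959), with the experiment number as a block (0.126) and with 2-kb counts (0.12).

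In the remaining classes, 1 of 14 carriers of bile acids and organic ions was higher, Slc22a15 (log2 fold change 0.67 ± 0.22, edgeR adjusted p = 0.0177), and its call ended without RANKL replicate 2 (0.12), without RANKL replicate 3 (0.171), without control replicate 1 (0.136) and with the experiment number as a block (0.071). Of 26 Golgi and endoplasmic reticulum carriers, Slc37a1, a glucose-6-phosphate/phosphate antiporter, was lower, with 70.3, 79.1 and 85.8 CPM with RANKL, against 164, 147 and 91.0 CPM in control organoids (log2 fold change -0.80 ± 0.20, edgeR adjusted p = 0.00119). All Slc37a1 libraries with RANKL lay below the controls, and the call ended without control replicate 1 (0.0522), with 2-kb counts (0.0675) and with 2-kb counts and loess offsets (0.357). Of 23 trace metal carriers, Slc39a8, which takes up zinc and manganese, fell in all RANKL libraries below the controls (log2 fold change -0.48 ± 0.14, edgeR adjusted p = 0.0114), ending without RANKL replicate 3 (0.311) and with loess offsets (0.0762). Slc40a1, given above, was the other lower one, and Slc39a9 was higher (log2 fold change 0.80 ± 0.28, edgeR adjusted p = 0.0338), ending without RANKL replicate 2 (0.064), without RANKL replicate 3 (0.219), without control replicate 1 (0.116), without control replicate 2 (0.111), with the experiment number as a block (0.0816), with loess offsets (0.0534), with 2-kb counts (0.351) and with 2-kb counts and loess offsets (0.29). Of 13 carriers of vesicles and transmitters, Slc6a6, the taurine transporter, was lower (log2 fold change -0.43 ± 0.15, edgeR adjusted p = 0.0384), ending without RANKL replicate 2 (0.195), without RANKL replicate 3 (0.155), without control replicate 1 (0.146), without control replicate 2 (0.155), with the experiment number as a block (0.113), with loess offsets (0.136) and with 2-kb counts and loess offsets (0.496). Shares called in these classes were 7.14%, 3.85%, 13.0% and 7.69% in turn, beside 15.4% of all genes. None of 21 carriers of vitamins, choline and nucleosides was called in edgeR or DESeq2, with 6 at an unadjusted p under 0.05 in edgeR, near the share of all genes.

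Single windows were also called at a share near that of all genes. Members held 812 windows, of which 402 could be tested, and 45 were higher and 29 lower with RANKL (18.4% called). Among all 17894 tested windows within 50 kb of a gene end, 9.49% were higher, 7.54% lower and 17.0% either. A called window was found at 64 (24.6%) of 260 members, beside 20.9% of 12479 genes with 60 or more counts. It was found at 31 members whose sum was not called, while 8 called members had none. Windows of a single gene moved in opposite directions at 4 members (1.54%), Slc13a1, Slc16a7, Slc35b3 and Slc5a9, beside 0.833% of those genes.

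At Slc13a1, the window chr6:24166850-24167049, 1170 bp inside the gene, had 155, 77.9 and 93.4 CPM with RANKL, against 18.6, 7.89 and 22.6 CPM in control organoids (log2 fold change 2.76 ± 0.31). It is the largest rise among well covered member windows, those whose mean level over all libraries is at or above that of the median tested window. A second Slc13a1 window, chr6:24047136-24047335, 41048 bp outside the gene, had 24.4, 14.4 and 18.0 CPM with RANKL, against 47.3, 59.2 and 56.6 CPM in control organoids (log2 fold change -1.55 ± 0.37). At both windows, most libraries of the lower group lay under the level that the filter on low counts asks for. Each passed through the group where it is high, so these values are a description. The groups did not overlap at either window, whereas the sum over the gene did overlap. At Slc5a9, a sodium-coupled mannose transporter, the window chr4:111901517-111901716, 1180 bp inside the gene, had 36.6, 31.7 and 41.0 CPM with RANKL, against 95.9, 96.0 and 130.1 CPM in control organoids (log2 fold change -1.47 ± 0.24, edgeR adjusted p = 9.55e-08). The window chr4:111907857-111908056, 5160 bp outside Slc5a9, had 77.3, 92.4 and 75.4 CPM with RANKL, against 35.8, 46.0 and 22.6 CPM in control organoids (log2 fold change 1.12 ± 0.26, edgeR adjusted p = 3.78e-04). Both Slc5a9 windows kept their calls in every alternative, and the Slc5a9 sum was not called (log2 fold change -0.27 ± 0.15, edgeR adjusted p = 0.219).

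At Slc16a7, a monocarboxylate transporter, the window chr10:125171295-125171494, 47876 bp outside the gene, had 97.6, 49.1 and 62.3 CPM with RANKL, against 11.5, 9.21 and 17.0 CPM in control organoids (log2 fold change 2.49 ± 0.38). It passed the filter on low counts only through the RANKL libraries, so these values are a description. The window chr10:125389589-125389788, 102 bp outside the opposite end, had 44.7, 26.0 and 37.7 CPM with RANKL, against 68.7, 88.1 and 62.2 CPM in control organoids (log2 fold change -1.06 ± 0.27, edgeR adjusted p = 0.00139). Groups did not overlap at either, and the Slc16a7 windows were chosen after their values were seen. At Slc35b3, which carries the sulfate donor PAPS into the Golgi, the window chr13:38960449-38960648, 331 bp inside the gene, was higher (log2 fold change 0.80 ± 0.30, edgeR adjusted p = 0.0428). A Slc35b3 window 2087 bp outside the other end, chr13:38929946-38930145, was lower (log2 fold change -1.10 ± 0.36, edgeR adjusted p = 0.0157), a call that ended with DESeq2 (adjusted p = 0.107) and without RANKL replicate 2 (edgeR adjusted p = 0.0792), RANKL replicate 3 (0.217) or control replicate 2 (0.0962). The Slc35b3 groups overlapped at the window that was lower and not at the one that was higher.

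**Figure D4:**
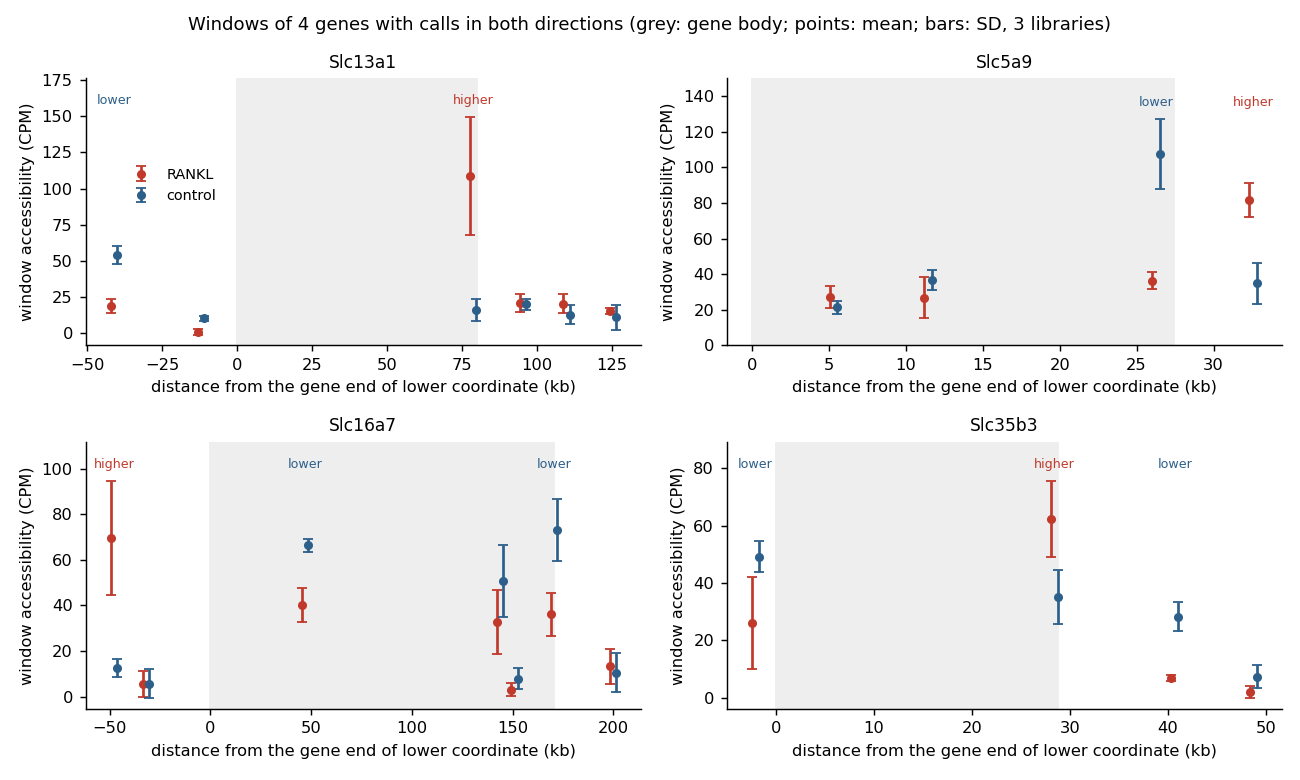
Accessibility (CPM, mean and SD of 3 libraries) of each window of Slc13a1, Slc5a9, Slc16a7 and Slc35b3 against its distance in kb from the gene end of lower coordinate, with the gene body in grey, RANKL drawn just left of control and called windows marked. At Slc13a1 the called window at the far end of the gene averages 109 CPM with RANKL and 16.4 CPM in control organoids, while the one outside the near end averages 19.0 CPM with RANKL and 54.3 CPM in control organoids.

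The largest fall among well covered member windows was inside Slc4a4, chr5:89218384-89218583, 21173 bp inside the gene. It had 4.07, 28.9 and 26.2 CPM with RANKL, against 75.9, 67.1 and 65.1 CPM in control organoids (log2 fold change -1.64 ± 0.32, edgeR adjusted p = 9.63e-06) and kept its call in every alternative. The single window of Slc13a4, chr6:35303425-35303624, lies 4602 bp inside the gene. The Slc25a29 window chr12:108827777-108827976, 1998 bp inside the gene, had 81.4, 80.8 and 93.4 CPM with RANKL, against 40.1, 38.1 and 28.3 CPM in control organoids (log2 fold change 1.23 ± 0.26, edgeR adjusted p = 4.22e-05). At Slc38a7 the called window was chr8:95852394-95852593, 1084 bp inside the gene (log2 fold change 1.30 ± 0.33, edgeR adjusted p = 0.00114), and it was not called with 2-kb counts (adjusted p = 0.458) or 2-kb counts and loess offsets (edgeR adjusted p = 0.175). At Slc15a4, a lysosomal transporter of histidine and peptides, it was chr5:127610882-127611081, 16436 bp inside the gene (log2 fold change 1.14 ± 0.33, edgeR adjusted p = 0.00567). That call ended without RANKL replicate 2 (edgeR adjusted p = 0.124), with 2-kb counts (0.129) and with 2-kb counts and loess offsets (0.0597).

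Several thinner windows were nearly empty in 1 group, and they were chosen after their values were seen. The window chr4:14499808-14500007, 2523 bp outside Slc26a7, had 6, 11 and 22 counts with RANKL, against 1, 0 and 1 counts in control organoids. The window chr19:28861593-28861792, 26557 bp inside Slc1a1, the neuronal and epithelial glutamate transporter, had 6, 9 and 18 counts with RANKL, against 0, 3 and 1 counts in control organoids. The Slc1a1 sum was not called (log2 fold change -0.03 ± 0.20, edgeR adjusted p = 0.941). In the other direction, the window chr19:34712107-34712306, 35287 bp inside Slc16a12, had 0, 2 and 2 counts with RANKL, against 28, 24 and 16 counts in control organoids. The window chr6:137966212-137966411, 17275 bp outside Slc15a5, had 0, 1 and 3 counts with RANKL, against 25, 22 and 11 counts in control organoids. These 4 windows passed the filter on low counts only through the group where they are high, so their counts are a description and no test is given for them. No fold is given, since counts of 0 to 3 in a group make a fitted fold depend on the prior count. The sums of Slc26a7, Slc16a12 and Slc15a5 include these windows, so their calls rest partly on them. The Slc26a7 sum held 8, 14 and 43 counts with RANKL, against 10, 20 and 9 in control organoids. Its call was lost with windows within 1 kb only, which leave the thin one out. Those of Slc16a12 and Slc15a5 were lost with windows within 5 kb only, which leave out these and others.

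Calls near gene ends leaned toward higher values in the 200-bp counts. Of 139 tested member windows within 1 kb of a gene end, 23 (16.5%) were higher and 2 (1.44%) lower with RANKL, beside 9.22% higher and 2.92% lower of 8178 such windows of all genes. Of 263 member windows further away, 22 (8.37%) were higher and 27 (10.3%) lower, beside 9.73% and 11.4% of 9716 windows of all genes. The difference between members and all genes was not tested. The lean depended on how reads were counted. With counts over 2 kb around the same centres, 9 (5.11%) of 176 near-end member windows were higher and 13 (7.39%) lower, beside 2.63% and 13.8% of all 10140. With 2-kb counts and loess offsets, 19 (10.8%) were higher and 6 (3.41%) lower, beside 8.86% and 4.59%. The median log2 fold change of near-end member windows was 0.21 with 200-bp counts, -0.05 with 2-kb counts and 0.13 with loess offsets, and 0.15, -0.09 and 0.09 over all genes. Reads in the middle 200 bp made up 33.9% to 36.5% of those over 2 kb with RANKL and 39.9% to 41.0% in control organoids, and the part of this difference in the near-end calls was not tested.

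**Figure D5:**
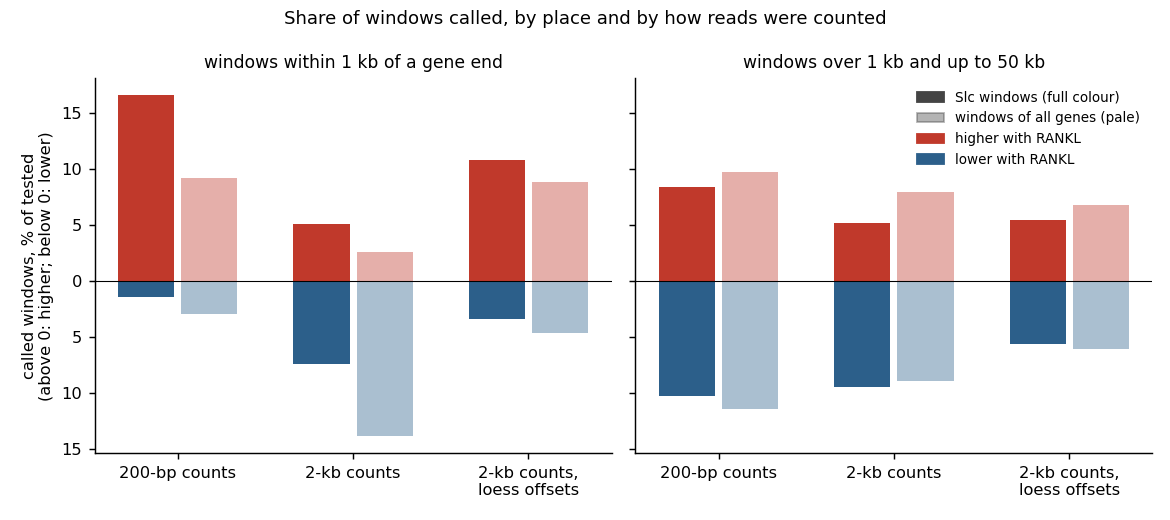
Share of tested windows called (%, higher above 0 and lower below 0) within 1 kb of a gene end (left) and between 1 and 50 kb (right), for Slc windows in full colour and windows of all genes in pale, under 3 ways of counting reads. Near gene ends 16.5% of Slc windows were higher in 200-bp counts, against 5.11% in 2-kb counts and 10.8% in 2-kb counts with loess offsets.

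Promoter sequences of 300 bases, from 250 before to 50 after a start, were matched to 199 members from RefSeq (GRCm38.p6). Of 93 members with a tested window over the promoter, 13 (14.0%) had one called higher and 1 (1.08%) one called lower, beside 9.97% and 2.36% of 6058 such genes of the whole data set. With 2-kb counts, 5 (4.72%) of 106 members were higher and 9 (8.49%) lower there, beside 1.99% and 14.6% of 6522 genes. With 2-kb counts and loess offsets, 13 (12.3%) were higher and 4 (3.77%) lower, beside 9.71% and 4.4%. The difference from all genes was not tested. The lower one, Slc38a9, is shown first, followed by Slc2a6, Slc9a8 and Slc27a4, whose gene sums were also called higher, and by Slc37a4 and Slc25a48, which hold an NF-kB consensus. Capitals mark matches on either strand to AP-1 (TGANTCA), ONECUT like (ATCAAT), HNF4 like (CAAAGT), Ets like (GGAAGT) and NF-kB consensus (GGGRNWYYCC) motifs, matches to different motifs being allowed to overlap. In these, R is A or G, W is A or T, Y is C or T and N is any base.
Slc38a9, chr13:112660516-112660815, plus strand: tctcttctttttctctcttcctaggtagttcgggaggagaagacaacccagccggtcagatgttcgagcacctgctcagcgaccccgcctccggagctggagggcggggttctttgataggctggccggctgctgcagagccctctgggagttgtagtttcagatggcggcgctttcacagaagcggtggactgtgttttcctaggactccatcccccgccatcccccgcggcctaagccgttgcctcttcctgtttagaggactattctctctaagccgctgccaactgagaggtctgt
Slc2a6, chr2:27027949-27028248, minus strand: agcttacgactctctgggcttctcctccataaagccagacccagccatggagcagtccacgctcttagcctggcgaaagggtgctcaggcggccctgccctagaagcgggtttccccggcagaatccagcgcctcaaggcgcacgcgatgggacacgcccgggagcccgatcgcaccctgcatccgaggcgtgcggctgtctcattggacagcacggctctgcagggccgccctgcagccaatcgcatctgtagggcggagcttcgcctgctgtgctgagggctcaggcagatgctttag
Slc9a8, chr2:167421460-167421759, plus strand: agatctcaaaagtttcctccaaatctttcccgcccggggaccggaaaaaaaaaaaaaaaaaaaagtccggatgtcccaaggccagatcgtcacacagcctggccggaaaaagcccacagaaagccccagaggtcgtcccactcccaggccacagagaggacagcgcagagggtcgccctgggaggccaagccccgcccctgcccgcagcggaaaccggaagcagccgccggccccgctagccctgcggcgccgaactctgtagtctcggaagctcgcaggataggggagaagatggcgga
Slc27a4, chr2:29802384-29802683, plus strand: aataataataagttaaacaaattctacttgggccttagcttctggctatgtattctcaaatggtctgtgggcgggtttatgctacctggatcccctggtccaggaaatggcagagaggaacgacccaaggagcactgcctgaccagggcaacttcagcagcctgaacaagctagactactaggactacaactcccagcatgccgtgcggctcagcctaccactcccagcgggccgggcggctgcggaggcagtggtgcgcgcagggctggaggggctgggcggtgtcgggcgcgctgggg
Slc37a4, chr9:44396849-44397148, plus strand: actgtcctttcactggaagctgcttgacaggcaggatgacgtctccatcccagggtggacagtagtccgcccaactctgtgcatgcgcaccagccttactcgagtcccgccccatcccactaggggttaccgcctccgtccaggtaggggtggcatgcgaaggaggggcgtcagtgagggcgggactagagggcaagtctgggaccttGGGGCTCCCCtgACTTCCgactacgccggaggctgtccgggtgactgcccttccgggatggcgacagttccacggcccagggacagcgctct
Slc25a48, chr13:56438105-56438404, plus strand: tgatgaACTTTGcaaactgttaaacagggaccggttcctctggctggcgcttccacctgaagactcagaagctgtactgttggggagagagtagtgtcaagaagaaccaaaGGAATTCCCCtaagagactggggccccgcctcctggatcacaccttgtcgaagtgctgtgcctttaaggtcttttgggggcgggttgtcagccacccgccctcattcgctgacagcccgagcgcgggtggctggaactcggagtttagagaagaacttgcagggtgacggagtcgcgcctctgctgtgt

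Over the Slc38a9 promoter, the called window had 44.7, 37.5 and 32.8 CPM with RANKL, against 73.0, 72.4 and 53.8 CPM in control organoids (log2 fold change -0.89 ± 0.28, edgeR adjusted p = 0.0121), with no overlap. The Slc2a6 promoter window had 52.9, 51.9 and 91.8 CPM with RANKL, against 25.8, 44.7 and 28.3 CPM in control organoids (log2 fold change 1.04 ± 0.28, edgeR adjusted p = 0.00269), and that of Slc9a8 had 32.5, 66.4 and 73.7 CPM with RANKL, against 30.1, 30.3 and 25.5 CPM in control organoids (log2 fold change 1.08 ± 0.31, edgeR adjusted p = 0.00509). All RANKL libraries stood above all controls at both. At the Slc27a4 promoter the window had 61.0, 46.2 and 55.7 CPM with RANKL, against 21.5, 30.3 and 22.6 CPM in control organoids (log2 fold change 1.09 ± 0.34, edgeR adjusted p = 0.0104), again without overlap. At Slc25a48, a mitochondrial carrier, the window had 48.8, 40.4 and 59.0 CPM with RANKL, against 22.9, 18.4 and 11.3 CPM in control organoids (log2 fold change 1.44 ± 0.38). Most control libraries lay under the level that the filter on low counts asks for at this window, so these values are a description. At Slc37a4, the glucose-6-phosphate carrier of the endoplasmic reticulum, the window had 126, 83.7 and 129 CPM with RANKL, against 60.1, 72.4 and 110.3 CPM in control organoids (log2 fold change 0.60 ± 0.19, edgeR adjusted p = 0.0145). The Slc25a48 groups did not overlap, the Slc37a4 groups did, and neither gene's sum was called. These 6 windows were chosen for their promoters, after values were seen.

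No capitals appear in the first 4 promoters, which says only that these letters are not in this stretch. The NF-kB consensus lies at -42 in Slc37a4 and at -139 in Slc25a48, counted from the start, with an Ets like match at -30 in Slc37a4 and an HNF4 like match at -244 in Slc25a48. Over 259 promoters of members, some with several starts, 6.56% held the NF-kB consensus, 4.63% AP-1, 5.79% ONECUT like, 11.2% HNF4 like and 22.8% Ets like letters. Over 21263 promoters of all genes, 4.81% held the NF-kB consensus, 6.99% AP-1, 6.54% ONECUT like, 13.4% HNF4 like and 24.8% Ets like letters. A match is a description of letters and not a bound site.

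Other carriers with a higher promoter window, also named after their values were seen, included Slc6a20a, a proline transporter (log2 fold change 1.03 ± 0.28, edgeR adjusted p = 0.00234), and Slc16a1, a monocarboxylate transporter (log2 fold change 1.01 ± 0.30, edgeR adjusted p = 0.00767). The Slc6a20a window had 97.6, 51.9 and 75.4 CPM with RANKL, against 35.8, 38.1 and 31.1 CPM in control organoids, and the Slc16a1 window had 61.0, 49.1 and 72.1 CPM with RANKL, against 30.1, 42.1 and 11.3 CPM in control organoids. Neither window overlapped between groups. Slc22a5, the carnitine transporter, had a promoter window of 69.2, 83.7 and 88.5 CPM with RANKL, against 48.7, 48.7 and 56.6 CPM in control organoids (log2 fold change 0.71 ± 0.24, edgeR adjusted p = 0.0194). The sums over all windows of these 3 genes were not called. Of the 25 called near-end windows, 3 lie within 1 kb of a second gene's end, those of Slc25a35, Slc39a9 and Slc26a8.

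Marker genes of the cell types moved between the groups as well. Of 12 M cell markers, 9 could be tested, and 5 were higher and none lower in edgeR, beside 6.99% higher of all genes. Of these 5, Sox8, H2-M2 and Msln passed the filter on low counts only through the RANKL libraries, so their calls are a description. Tnfrsf11a and Marcksl1 were the others. For Marcksl1, most control libraries lay under the level that this filter asks for, so its call is a description too. The summed accessibility of the 12 was 878 to 1083 CPM with RANKL and 532 to 596 CPM in control organoids. Of 12 enterocyte markers, 8 were tested, with none higher and 2 lower (8.41% of all genes were lower), and sums of 628 to 707 CPM with RANKL and 782 to 853 CPM in control organoids. Of 7 crypt markers, none was higher and 4 were lower, beside the same 8.41% lower of all genes, with sums of 821 to 869 CPM with RANKL and 995 to 1190 CPM in control organoids. Immune markers summed to 89.8 to 135 CPM with RANKL and 94.2 to 117 CPM in control organoids, with 0 of 3 tested called, and Cd3e, Cd79a and Cd68 were among those with no window. Mesenchymal, endothelial and neural markers had 1 higher of 5, 1 higher of 3 and 0 of 1 tested. Their sums were 246 to 317, 142 to 203 and 45.9 to 97.6 CPM with RANKL, against 216 to 286, 145 to 213 and 63.5 to 92.9 CPM in control organoids. The part of these shifts in the changes near solute carrier genes was not tested.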

How the data were processed

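Each ATAC-seq library was made from 50000 cells and read at 38 bp, per the labels. The main measurement was the raw counts that the authors deposited for 55056 windows, each 200 bp wide. For 55050 of these centres a 2-kb window also has a deposited normalized score. Counts over 2 kb were recovered from the deposited score, and they lay within 0.0074 of a whole number. Per the submitters' processing notes, the tools were DESeq2 1.34.0, MACS2 2.2.7, Picard, BWA 0.7.17 and fastp 0.20.1, with the builds GRCm38 and mm10. Not given in the sources used here are their roles, any shift of read ends and the handling of duplicates. Fixed 200-bp windows hold part of a broad open region, so a change in its shape can move such a count.

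The 21900 protein-coding genes were placed with RefSeq positions (GRCm38.p6), which carry no strand. Each window went to its nearest gene end within 50 kb, which took in 38494 windows (69.9%), and windows within 1 kb were called near-end. Window starts are printed counted from 1. Gene sums and windows were tested over all features in R 4.3.3 by the robust quasi-likelihood test of edgeR 4.0.16, after filterByExpr and TMM and without covariates, and a Benjamini-Hochberg adjusted p of 0.05 or less was a call. The SE was taken as the size of the log2 fold change over the square root of F. Alternatives were DESeq2 1.42.0, RLE factors, no filter, loess offsets from limma 3.58.1, 2-kb counts with and without loess offsets, other distances, the nearest gene body, and each library left out.

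Totals of 322173 to 976881 counts per library limit precision. On the scale of the gene sums, 3 counts were worth 11.7 CPM in RANKL replicate 1 and 8.19 CPM in RANKL replicate 2. On simulated counts for 12466 genes, RANKL against control, 97 of 100 genes with a 4-fold change were recovered, 65 of 100 with a 2-fold change, and 10 of 12266 without a change were called. For 21618 windows these numbers were 91 of 100, 45 of 100 and 5 of 21418. The counts were drawn from edgeR's own model with the spread it fitted to these data, and few features were changed. These numbers are therefore not error rates of the calls reported here.

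The labels give each group experiments 1, 2 and 3, so the experiment number was also used as a block. Same-numbered libraries did not deviate together: the correlation of their deviations from the group means over genes was -0.0497, 0.00875 and -0.0314. The replicates come from 1 organoid line, so p-values measure the spread between experiments on that line.

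Members, classes and lists were chosen with earlier results of these data known. Named genes were the 12 largest changes called in each direction, called carriers of intestinal absorption with 18 fixed ones whether called or not, called carriers of crypt and secretory cells, up to 3 called genes with the smallest p in each class, the genes of called windows of at least median level with the 5 strongest rises or falls, and genes with windows called both ways.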

Additional observations from a re-analysis of the deposited data

How the results depend on the processing

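Of the 41 called Slc genes (20 higher, 21 lower), RLE factors kept 41, no filter 39, the nearest gene body 37, loess offsets 35, the replicate block 30, 2-kb counts 24, 2-kb counts with loess offsets 23 and DESeq2 15. Windows within 5 kb kept 16 of the 33 still tested, and windows over 1 kb kept 24 of 34. Windows within 1 kb kept 3 of 21, with 3 higher and 0 lower. The counts that follow are of all members called in a run, also ones not among the 41. Shares over all genes in the same run are not given for most of them, so a drop cannot be read as particular to members. Counts of higher genes were 7 with DESeq2, 12 within 5 kb, 6 within 1 kb, 13 over 1 kb, 14 with the block, and 5 (without RANKL replicate 3) to 18 with 1 library left out. Counts of lower genes were 8 with DESeq2, 3 within 1 kb (none of them among the 21 lower calls), 16 with the block, and 10 (without control replicate 1) to 22 with 1 library left out. For windows, 45 were higher and 29 lower as reported. Higher windows were 21 with DESeq2, 30 with the block and 17 to 47 with 1 library left out, and lower windows were 14, 27 and 15 to 36, with 70 in 2-kb counts. Near gene ends, 23 higher windows became 6 with DESeq2, 13 with the block, 9 in 2-kb counts and 6 to 20 with 1 library left out. Higher near-end windows were 4.32% of members' and 3.07% of all genes' windows with DESeq2, and 9.35% and 6.84% with the block. The 2 lower near-end windows became 1, 2, 13 (6 with loess offsets) and 1 to 4. The cause was not tested. Of 691 alternative values of the 45 named called genes and windows, 507 kept direction and call, 181 lost the call and 3 reversed, namely Slc25a17 (-0.0716) and Slc26a7 (-0.14) within 1 kb and Slc39a9 (-0.0323) by nearest gene body. Among genes not called, the log2 fold change of Slc10a2 reversed with the block (-0.0088), within 5 kb (-0.34) and with 1 library left out (-0.18 to 0.18), that of Slc34a2 with loess offsets (0.0278, and 0.0307 in 2-kb counts), over 1 kb (0.0264) and with 1 library left out (-0.25 to 0.0492), and that of Slc39a4 with 1 library left out (-0.12 to 0.59). Further reversals were Slc15a4 within 5 kb (-0.0562) and 1 kb (-0.20), Slc16a7 in 2-kb counts with loess offsets (0.0015) and over 1 kb (0.0574), Slc2a5 in the same 2-kb fit (0.0424) and within 5 kb (0.15), Slc35b3 within 1 kb (0.67), Slc3a1 by nearest gene body (-0.0613), and Slc5a1 in 2-kb counts (0.16, and 0.22 with loess offsets). No scaling moved the median of all genes by over 0.1 on the log2 scale. Depth limits single windows most, since only 402 of 812 could be tested.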
